A study of Mus musculus with 4 samples.

Results

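The proteasome genes were followed here through maps of open chromatin in mouse liver. They were chosen by symbol in RefSeq's mm10 (GRCm38) annotation, as the protein-coding genes whose names begin Psma, Psmb, Psmc, Psmd, Psme, Psmf or Psmg and go on with a digit. That gave 51 genes of 21631 protein-coding genes on chromosomes 1 to 19 and X, and 48 of the 51 encode a subunit, activator, inhibitor or assembly chaperone of the proteasome. The other 3 were taken by symbol alone. Psmc3ip encodes a meiotic recombination factor, Psme3ip1 a protein that interacts with Psme3, and Psme2b a close relative of Psme2. A gene counted as called in a library when a peak lay within 1 kb of either end of the gene.

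The libraries were ATAC-seq libraries, in which the Tn5 transposase inserts adaptors into open DNA, from 20 mg of frozen liver of female mice of the FVB background, 11 weeks old and kept on standard chow. There were 2 PA libraries, from mice with a hypomorphic Pcca genotype (Pcca-/-, A138T), and 2 WT libraries, all from whole liver and described as biological replicates. Pcca encodes a subunit of propionyl-CoA carboxylase, and the study set PA against WT livers. PA 1 had 25683 peaks and PA 2 29765, against 26280 in WT 1 and 25941 in WT 2. Read depth is unknown, and a peak list says only that a window passed the authors' threshold. In whole tissue, fewer cells with an open site and less opening per cell cannot be told apart.

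The proteasome is the barrel-shaped protease that degrades ubiquitin-tagged proteins. Its 20S core is a stack of rings of alpha subunits, which form the gate, and beta subunits, some of which cut peptide bonds. A 19S cap, made of a base with ATPases and a lid, recognises, unfolds and feeds in the substrate. The subunits are made together in nearly all cells, and the transcription factor NFE2L1 is known to raise them when proteasome activity falls. Interferon induces alternative catalytic subunits that form the immunoproteasome.

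Promoter sequences are shown first for the catalytic subunits, since the calls differed among them. The sequences are RefSeq promoters of GRCm38.p6, 300 bases each, from 250 bases before the start to 50 bases from it on, and printed 5′ to 3′ on the strand of the gene. Capitals mark matches, on either strand, to any of 7 motifs: the antioxidant response element core TGACNNNGC, the CCAAT box, the GC box GGGCGG, the ETS core CCGGAAG, the cyclic AMP response element TGACGTCA, the interferon-stimulated response element core GAAANNGAA and the STAT palindrome TTCNNNGAA. Psmb5 (chr14:54617946-54618245, minus strand) and Psmb6 (chr11:70525107-70525406, plus strand) belong to the standard core. Psmb8 (chr17:34197945-34198244, plus strand), Psmb9 (chr17:34187281-34187580, minus strand) and Psmb10 (chr8:105938343-105938642, minus strand) belong to the immunoproteasome.
Psmb5: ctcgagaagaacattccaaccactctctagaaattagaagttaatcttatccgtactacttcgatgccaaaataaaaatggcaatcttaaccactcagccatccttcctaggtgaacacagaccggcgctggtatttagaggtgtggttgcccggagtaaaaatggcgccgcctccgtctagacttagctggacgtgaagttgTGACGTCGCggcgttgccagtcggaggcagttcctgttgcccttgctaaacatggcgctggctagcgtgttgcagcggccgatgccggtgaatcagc
Psmb6: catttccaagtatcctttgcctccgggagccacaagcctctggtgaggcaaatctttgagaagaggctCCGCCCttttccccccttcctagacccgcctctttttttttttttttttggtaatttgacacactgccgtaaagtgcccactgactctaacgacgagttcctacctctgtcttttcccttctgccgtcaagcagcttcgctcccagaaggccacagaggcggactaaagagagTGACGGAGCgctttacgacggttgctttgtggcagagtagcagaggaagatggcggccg
Psmb8: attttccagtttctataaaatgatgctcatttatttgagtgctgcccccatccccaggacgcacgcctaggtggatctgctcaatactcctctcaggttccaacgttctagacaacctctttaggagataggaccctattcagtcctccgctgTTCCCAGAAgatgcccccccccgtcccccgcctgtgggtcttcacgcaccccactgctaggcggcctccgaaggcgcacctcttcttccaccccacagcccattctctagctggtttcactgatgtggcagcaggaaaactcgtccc
Psmb9: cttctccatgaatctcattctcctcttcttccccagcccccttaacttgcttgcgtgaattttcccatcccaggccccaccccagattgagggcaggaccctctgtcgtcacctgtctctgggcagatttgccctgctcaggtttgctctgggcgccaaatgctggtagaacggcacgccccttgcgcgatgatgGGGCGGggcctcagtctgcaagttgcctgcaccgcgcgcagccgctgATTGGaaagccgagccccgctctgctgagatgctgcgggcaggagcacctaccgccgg
Psmb10: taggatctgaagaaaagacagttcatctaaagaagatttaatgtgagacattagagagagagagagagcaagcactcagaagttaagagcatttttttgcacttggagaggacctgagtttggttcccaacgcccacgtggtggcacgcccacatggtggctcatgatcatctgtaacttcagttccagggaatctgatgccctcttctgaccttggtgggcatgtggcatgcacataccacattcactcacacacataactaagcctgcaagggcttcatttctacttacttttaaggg

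In the Psmb5 promoter the single match is TGACGTCGC, the antioxidant response element core, with its first base at -47, counted from the start as 0. In Psmb6 the match TGACGGAGC has its first base at -9, and a GC box lies further upstream. Psmb8 has a STAT palindrome, TTCCCAGAA, with its first base at -97. Psmb9 has a GC box and a CCAAT box, and the Psmb10 window has a match to none of the 7 motifs. A match is a description of letters and not a site shown to be bound.

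Proteasome genes were mostly called, and called in both genotypes. PA 1 had 40 of the 51 genes called and PA 2 had 41, against 41 in WT 1 and 40 in WT 2. The mean was 40.5 ± 0.707 genes in PA and 40.5 ± 0.707 in WT (SD, n = 2 each), so no difference between the genotypes was seen in this count. All protein-coding genes were level as well, with 46.3% and 47.0% called in PA 1 and PA 2 and 46.2% and 46.4% in WT 1 and WT 2. Of the 51 genes, 37 (72.5%) were called in all 4 libraries, beside 41.3% of all protein-coding genes. A further 7 were called in 1, 2 or 3 libraries (13.7%, beside 10.4%) and 7 in no library (13.7%, beside 48.3%). No test was run on these counts. With 2 libraries against 2, an exact permutation has 3 splits and cannot give a p below 0.333.

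No proteasome gene was restricted to a genotype. PA-only genes, called in PA 1 and PA 2 and in no WT library, numbered 0 of the 51, beside 0.661% (143 genes) of all protein-coding genes. WT-only genes, called in WT 1 and WT 2 and in no PA library, numbered 0 as well, beside 0.476% (103 genes). At such rates a list of 51 genes would hold few restricted genes in any case, so the counts of 0 do not set the proteasome genes apart from the rest.

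Merging overlapping peaks of the 4 libraries gave 38853 regions. All 4 libraries contributed to 45.3% of them, 3.38% were PA-only and 1.98% were WT-only. Each region was given to the gene with the nearest end, and ties went to the first symbol in the alphabet. Regions over an end of Psma2, Psmc2, Psmc5 and Psmg2, called in all 4 libraries, were thus given to a neighbouring gene. Of the 71 regions given to a proteasome gene within 50 kb, 46 were called in all 4 libraries (64.8%), 2 were PA-only (2.82%) and 0 were WT-only. The restricted shares were near those of all regions. The 2 PA-only regions lay 15539 bp from Psma1 and 7631 bp from Psmb1.

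**Figure D1:**
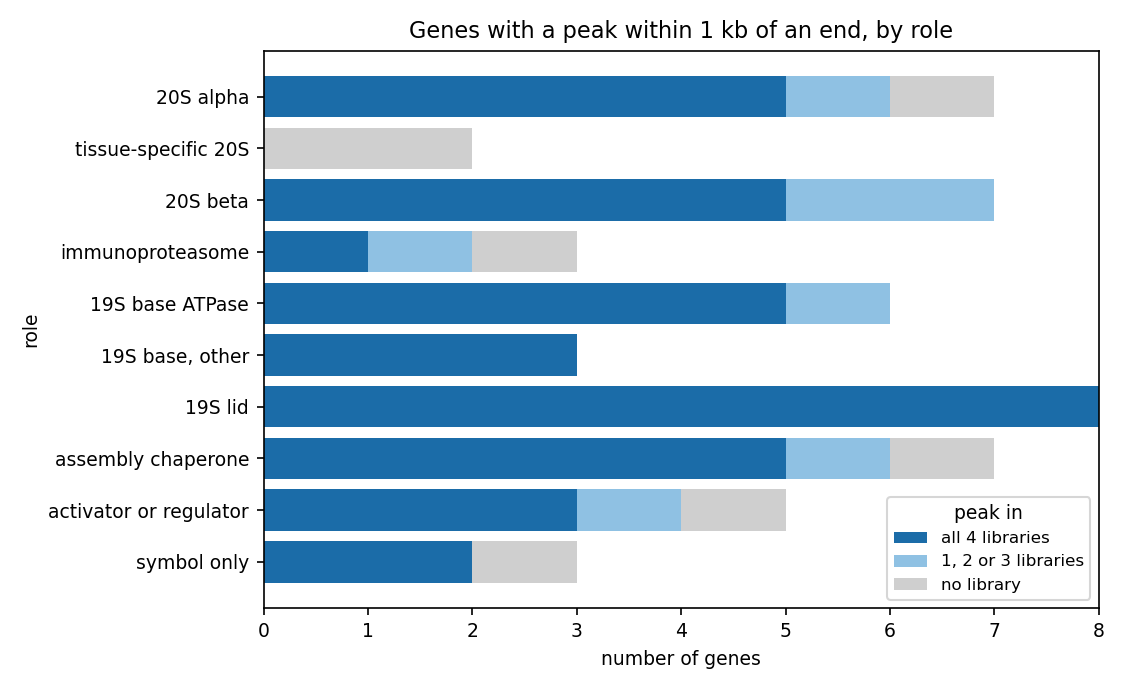
Number of the 51 genes (x axis) with a peak within 1 kb of a gene end in all 4 libraries, in 1, 2 or 3 libraries or in no library, by role (y axis). All 8 lid genes were called in all 4 libraries, and the 2 tissue-specific core genes in none.

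The 7 housekeeping alpha subunits of the core had 5 genes called in all 4 libraries. Psma2 was the highest listed gene among the parts of the proteasome. The deposited lists have an order that the sources used here do not explain, and place in a list, as the percentage of the way down, is used only to describe where a peak stands in its own list. The Psma2 peak stood 2.39% and 1.85% of the way down the PA 1 and PA 2 lists and 1.38% and 2.68% down the WT 1 and WT 2 lists. It was thus near the top of every list, in both genotypes. Psma2 starts 205 bp from the start of Mrpl32, a mitochondrial ribosomal protein gene on the other strand, and the peak cannot be assigned to one of them. The 4 others stood between 12.5% and 41.0%. The PA and WT places overlapped for Psma1, Psma4 and Psma5. Those of Psma7 did not, at 17.7% and 20.0% in PA 1 and PA 2 and at 41.0% and 25.4% in WT 1 and WT 2, but places in lists of unequal length show no change in opening.

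Psma6 and Psma3 were not called at their annotated ends in every library, and both have a RefSeq start inside that span. Psma6 (chromosome 12, 55384222 to 55418459) had no peak within 1 kb of either end in any library. At its second RefSeq start, 55398825, a peak was present in all 4 libraries, 11.4% and 10.2% down the PA 1 and PA 2 lists and 12.5% and 15.3% down the WT 1 and WT 2 lists. At the Psma3 start 70974623 a peak was likewise present in all 4, at 9.74% and 14.5% in PA and 13.7% and 18.3% in WT. The upstream end of the Psma3 span had peaks in PA 2, WT 1 and WT 2 only, at 62.6%, 65.5% and 60.1%. The calls at that end thus concern another, lower listed place than the start of the gene.

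The promoters of the 2 Psma6 starts are shown because the first had no peak and the second had one in every library. The first lies at chr12:55383972-55384271 and the second at chr12:55398575-55398874, both on the plus strand. They are followed by the promoter of Psma2 (chr13:14612992-14613291, plus strand), the highest listed core gene.
Psma6 first start: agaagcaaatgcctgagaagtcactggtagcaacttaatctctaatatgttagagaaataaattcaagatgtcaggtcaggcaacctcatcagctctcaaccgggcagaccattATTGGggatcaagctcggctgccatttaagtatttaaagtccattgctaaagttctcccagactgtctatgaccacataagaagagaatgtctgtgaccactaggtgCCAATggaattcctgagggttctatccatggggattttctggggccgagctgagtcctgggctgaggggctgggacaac
Psma6 second start: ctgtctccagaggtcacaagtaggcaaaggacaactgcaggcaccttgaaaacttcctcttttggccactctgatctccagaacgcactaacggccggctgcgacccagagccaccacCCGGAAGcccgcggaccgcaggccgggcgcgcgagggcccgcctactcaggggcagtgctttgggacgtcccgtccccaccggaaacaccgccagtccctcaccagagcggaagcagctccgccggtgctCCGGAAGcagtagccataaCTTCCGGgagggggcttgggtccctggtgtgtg
Psma2: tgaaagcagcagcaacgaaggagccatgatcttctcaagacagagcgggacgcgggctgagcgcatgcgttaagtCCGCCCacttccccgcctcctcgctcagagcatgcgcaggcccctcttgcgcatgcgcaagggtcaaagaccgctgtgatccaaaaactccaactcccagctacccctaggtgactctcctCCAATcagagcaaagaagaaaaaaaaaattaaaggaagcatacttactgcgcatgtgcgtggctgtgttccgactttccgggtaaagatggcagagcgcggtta

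The first Psma6 promoter has 46.7% G and C and a CpG ratio, observed over expected from its base composition, of 0.185. Its capitals are 2 CCAAT boxes. The second has 65.0% G and C, a CpG ratio of 0.697 and 3 ETS cores, 1 of them with its first base at -2. Psma2 has 54.7% G and C, a ratio of 0.851, a GC box and a CCAAT box.

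The 7 standard beta subunits had 5 genes called in all 4 libraries, of which the catalytic Psmb6 and Psmb7 stood lower in each list than the structural Psmb1, Psmb2 and Psmb3. These 3, which carry no active site, stood between 11.8% and 29.9% down the lists. Psmb6, the caspase-like subunit, stood at 56.0% and 43.9% in PA 1 and PA 2 and at 60.5% and 48.7% in WT 1 and WT 2. Psmb7, the trypsin-like subunit (chromosome 2, 38588046 to 38643952), stood at 60.7% and 60.8% in PA 1 and PA 2 and at 81.6% and 65.4% in WT 1 and WT 2. In WT 1 the Psmb7 call rests on another peak, 958 bp from the lower end, where Nek6 ends 556 bp away, while the peaks of PA 1, PA 2 and WT 2 overlap the upper end. Psmb7 therefore had no single region near an end that was called in all 4 libraries.

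Psmb5, the chymotrypsin-like subunit and the target of bortezomib, was called in 1 library of each genotype. The peak over its start stood 70.1% down the PA 2 list and 67.9% down the WT 2 list, and PA 1 and WT 1 had none there, with their nearest peaks 10427 and 10425 bp from the gene. Psmb4, a structural beta subunit, was called in WT 1 alone, at 87.4%. Neither pattern followed genotype.

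The immunoproteasome genes differed from each other and not by genotype. Psmb8, Psmb9 and Psmb10 take the places of Psmb5, Psmb6 and Psmb7 in cells exposed to interferon and in many immune cells. Psmb9 was called in all 4 libraries, at 30.7% and 34.8% in PA 1 and PA 2 and at 31.4% and 28.0% in WT 1 and WT 2. Its start lies 226 bp from that of Tap1, which encodes a peptide transporter of antigen presentation, and the same peak counts for both genes. Tap2, the partner of Tap1, was called in WT 2 alone, at 67.4%.

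Psmb8 was called in PA 1 alone, by a peak 302 bp upstream of its start that stood 64.5% down the list. Tap1 ends 970 bp from that start, so the call is not particular to Psmb8. Psmb10 had no call, but all 4 libraries had a peak inside the gene just past the 1 kb limit, 1071 bp from its start in PA 1 and PA 2, 1067 bp in WT 1 and 1083 bp in WT 2. It stood at 33.5% and 28.4% in PA and at 39.9% and 27.1% in WT. With a limit of 2 kb Psmb10 would be called in all 4 libraries. As measured beside these genes, 0 of 5 lymphocyte markers had a peak near an end in any library. Of 5 macrophage markers, 1 was called in any library, Adgre1, in both PA libraries alone and near the foot of the lists, at 94.8% and 97.7%. Of all protein-coding genes, 48.3% had no call in any library and 0.661% were PA-only. Lists of 5 markers therefore say little about immune cells. The part of such cells in the immunoproteasome calls was not tested.

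The tissue-specific core genes had no call in any library. Psma8, the alpha subunit of spermatogenic cells, had its nearest peak 20641 bp away in both PA libraries and 20655 bp away in both WT libraries. Psmb11, the thymic catalytic subunit, lies on the same chromosome as Psmb5, and its nearest peaks were 11670 and 7045 bp away in PA 1 and PA 2 and 11632 and 7048 bp away in WT 1 and WT 2. In PA 2 and WT 2 that nearest peak is the one over the start of Psmb5.

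**Figure D2:**
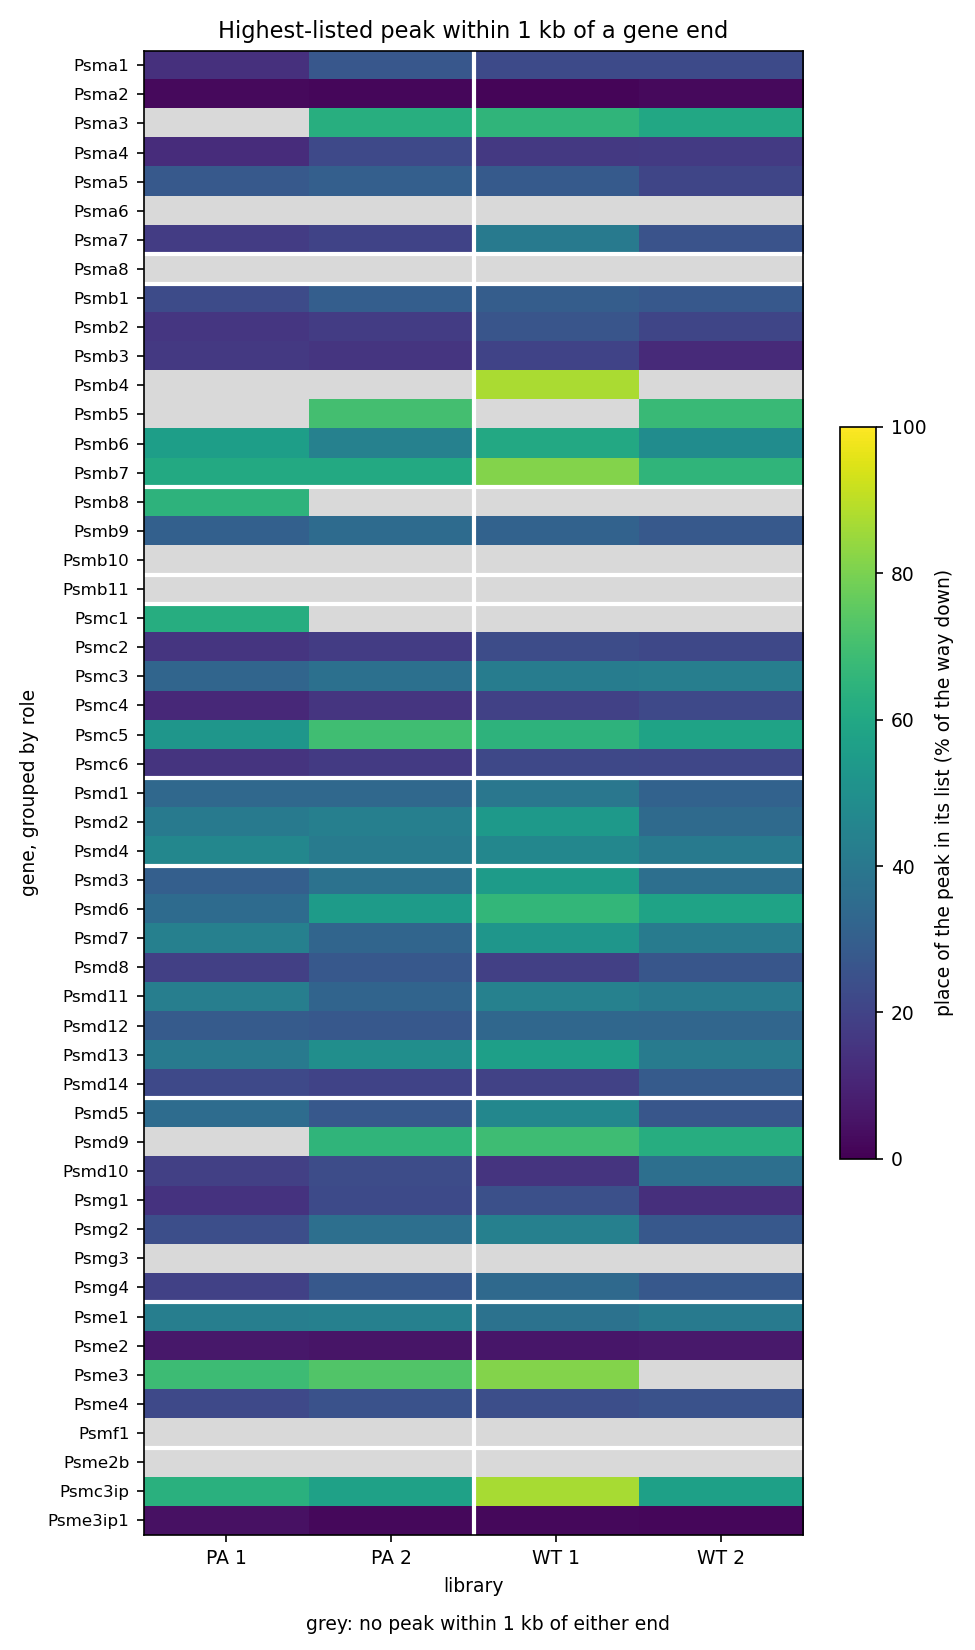
Place of the highest listed peak within 1 kb of a gene end, as the percentage of the way down each library's list (colour, 0 at the top of the list), for 51 genes (rows, in blocks by role) and the PA and WT libraries (columns). Grey cells have no such peak. Psma2, Psme2 and Psme3ip1 are high in every list, and no gene is grey in both libraries of one genotype and coloured in both of the other.

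Of the 6 ATPases of the 19S base, which unfold the substrate, 5 were called in all 4 libraries. Psmc4 stood at 11.4% and 15.4% in PA 1 and PA 2 and at 19.5% and 21.9% in WT 1 and WT 2. Psmc6 stood at 15.0% and 16.9% in PA and at 21.7% and 21.2% in WT, and Psmc2 at 15.6% and 17.6% in PA and 23.3% and 21.7% in WT. Psmc3 stood at 32.6% and 36.9% in PA and at 41.8% and 42.6% in WT. For these 4 genes both PA places were nearer the top than both WT places. That was so for 9 of the 37 genes called in all 4 libraries (24.3%), the others being Psma7, Psmb2, Psmb7, Psmd6 and Psmd12, beside 29.3% of all genes called in all 4. Both WT places were nearer the top for 1 of the 37, Psme1 (2.70%), beside 6.97% of all such genes. Neither share stood above that of all genes, and the same limit on places holds. Psmc5 stood between 52.5% and 69.5%. Psmc1 was called in PA 1 alone, by a peak over its start at 62.4%.

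Psmc6 is the ATPase gene whose promoter (chr14:45329574-45329873, plus strand) matched the most motifs among those printed, with 6 matches to 3 motifs, and it is shown for that. Its match to the antioxidant response element core, GCTAAGTCA, is on the other strand, with its first printed base at -227. The ETS core begins at -100, and 4 GC boxes follow it.
Psmc6: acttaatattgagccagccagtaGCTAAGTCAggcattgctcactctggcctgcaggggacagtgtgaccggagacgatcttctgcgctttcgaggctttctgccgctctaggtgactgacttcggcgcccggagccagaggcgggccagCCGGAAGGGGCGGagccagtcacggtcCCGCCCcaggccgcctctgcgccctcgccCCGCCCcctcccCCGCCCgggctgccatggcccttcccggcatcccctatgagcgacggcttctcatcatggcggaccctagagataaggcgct

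Every lid gene and every non-ATPase gene of the base was called in all 4 libraries. These are 8 lid genes, among them Psmd14, the enzyme that removes ubiquitin chains, and 3 base genes, the scaffolds Psmd1 and Psmd2 and the ubiquitin receptor Psmd4. Psmd14 stood at 22.2% and 20.3% in PA 1 and PA 2 and at 19.9% and 28.7% in WT 1 and WT 2. Places of the 8 lid genes ran from 18.9%, of Psmd8 in WT 1, to 66.4%, of Psmd6 in WT 1. The Psmd4 peaks stood between 41.4% and 46.3%, a narrow range over the libraries.

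At Psmd1 the peaks of the libraries lay at different distances from the start. Their centres were at -254 and -224 bp in PA 1 and PA 2 and at -144 and 2 bp in WT 1 and WT 2, where negative values are upstream. The PA peaks ended 54 and 25 bp short of the start, and the WT peaks covered it. If a peak had to cover a gene end, Psmd1 would count as called in WT alone. Psmd13 shares its start region with Sirt3, a mitochondrial deacylase gene on the other strand that starts 85 bp away, and its peaks lay 333 and 319 bp from the Psmd13 start in PA 1 and PA 2 and 308 and 307 bp from it in WT 1 and WT 2.

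Among the assembly chaperones, which build the core or the base and leave the finished particle, 5 of 7 were called in all 4 libraries. Psmg1, Psmg2 and Psmg4 of the core and Psmd5 and Psmd10 of the base stood between 13.5% and 46.3%. Psmd9 was called in PA 2, WT 1 and WT 2, at 65.3%, 69.0% and 62.2%, and not in PA 1. Psmg3 had no call. Its nearest peak was just past the limit in every library, 1164 and 1201 bp from the lower end in PA 1 and PA 2 and 1148 and 1187 bp from it in WT 1 and WT 2. The gene starts at its upper end, so that peak lies beyond its 3′ end.

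The activators replace the 19S cap at the ends of the core. Psme1 and Psme2 encode the interferon-inducible ring, and both were called in all 4 libraries. Psme2 stood at 6.61% and 5.52% in PA 1 and PA 2 and at 6% and 6.70% in WT 1 and WT 2, the highest place of the activators in each list. Psme1 stood at 42.7% and 43.4% in PA and at 37.5% and 40.8% in WT. Psme4, the large single-chain activator, stood between 22% and 25%.

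Psme3, the nuclear activator, was called in both PA libraries at 68.5% and 72.7%, and in WT 1 at 81.3%, and not in WT 2, whose nearest peak was 13706 bp away. Without WT 1, Psme3 would count as restricted to PA, so its status rests on 1 library. Psmf1, which encodes an inhibitor of the core, had no peak near either annotated end. At its RefSeq start inside the span, 151741310, a peak was present in all 4 libraries, at 33.7% and 38% in PA and at 45.9% and 43.0% in WT.

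Of the 3 genes taken by symbol alone, Psme3ip1 stood at 4.59% and 2.05% in PA 1 and PA 2 and at 2.21% and 1.87% in WT 1 and WT 2. Psmc3ip was called in all 4 libraries between 56.8% and 86.9%, and Psme2b in none. Psme3ip1 has an end 21 bp from an end of Rspry1, so its peak is shared as well.

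Genes called in some libraries only had their peaks low in the lists. The 14 calls of the 7 such genes stood between 60.1% and 87.4%, with a median of 66.7%. Places of all 2252 protein-coding genes called in 1, 2 or 3 libraries are not reported here. The low places are thus not shown to be particular to proteasome genes. The 148 places of the 37 genes called in all 4 libraries ran from 1.38% to 86.9%, with a median of 28.2%, and 21 of them were past 50%. The median place of those 37 genes was 24.2% in PA 1, 27.7% in PA 2, 33.4% in WT 1 and 27.7% in WT 2. Over all 8924 genes called in all 4 libraries the medians were 20.2%, 21.6%, 24.7% and 22.3%. By the median the proteasome genes were somewhat lower in each list than called genes at large. By the share in the first 50% of the list the order was the other way in PA 1 (89.2%, beside 87.5% of all such genes), PA 2 (89.2%, beside 84.2%) and WT 2 (89.2%, beside 83.5%), and the same as by the median in WT 1 (75.7%, beside 78.7%). Their order was alike in the libraries, with Spearman's rho across the 37 genes from 0.826 to 0.914. These genes are not independent replicates, and the libraries share the base composition of each locus.

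Peaks of the proteasome genes sat at the start of the gene. RefSeq promoters, and so a start and a strand, were matched for 43 of the 51 genes. Of the genes called in all 4 libraries, 30 had a strand, and all 30 had their peak at the 5′ end in every library. One of them, Psmb3, also had a peak at the 3′ end, in PA 1. The same count over all genes called in all 4 libraries is not reported here. A peak at the 5′ end is thus not shown to be particular to proteasome genes. Among centres within 1 kb of the nearest start, the median was at -56.0 and -54.0 bp in PA 1 and PA 2. It was at -50.0 and -49.0 bp in WT 1 and WT 2. This leaves out Psma3, whose end peaks lie further from its start, and Psma6 and Psmf1, which have no peak near an end. Over all protein-coding starts with a peak the medians were -52.5 and -53.5 bp in PA 1 and PA 2 and -54.5 and -50.5 bp in WT 1 and WT 2. These take every RefSeq start with a peak within 1 kb, and not only peaks near a gene end, so the measures are not quite alike. Among the 37 genes, the centres of the 4 libraries spanned a median of 36 bp, and for 36 of them the 4 peaks had bases in common, with Psmb7 the exception. Such spans and shared bases over all genes are not reported here.

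**Figure D3:**
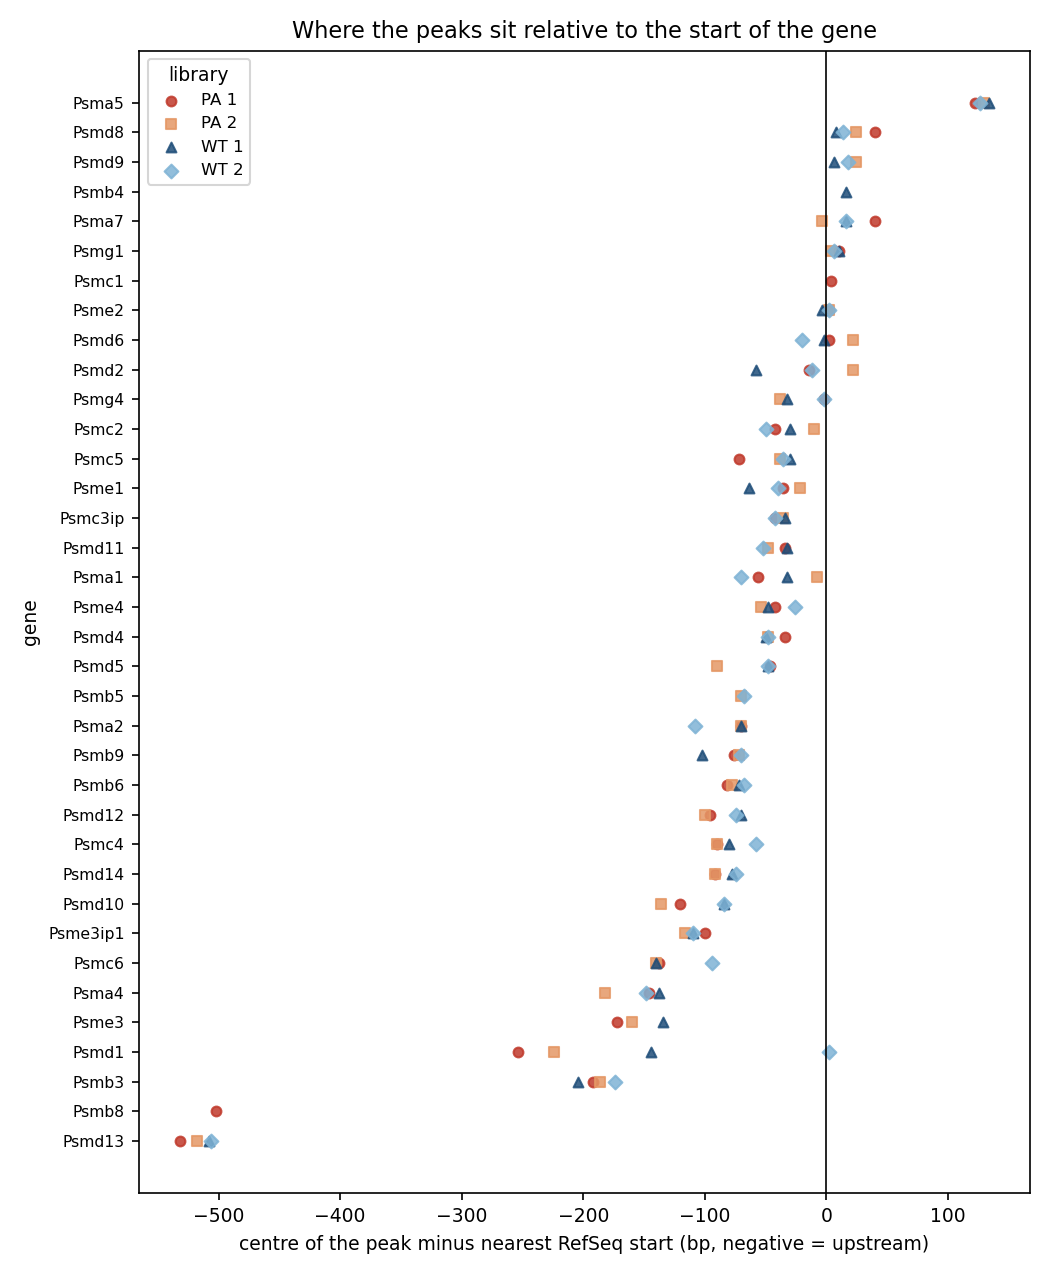
Distance from the nearest RefSeq start to the centre of the nearest peak (x axis, bp, negative upstream), 1 point for each PA or WT library. Genes (y axis) have a start and a peak near an end whose centre lies within 1 kb of the start. Psma3, whose end peaks lie further from its start, is not shown. Most centres lie within 200 bp of the start, those of Psmd13 lie over 500 bp upstream in every library, and those of Psmd1 are spread over 256 bp.

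Another protein-coding gene had an end, a start or a 3′ end, within 1 kb of an end of 21 of the 51 genes (41.2%), beside 25.1% of all protein-coding genes. For 15 of the 21 the shared end had a call in any library, and for 13 in all 4 libraries. For 7 genes RefSeq gives a start on the other strand within 1 kb. These divergent pairs include Psma2 with Mrpl32, Psma7 with Ss18l1 (19 bp between starts), Psmb9 with Tap1, Psmc5 with Ftsj3 (101 bp), Psmd13 with Sirt3 and Psme2 with Rnf31 (641 bp). A call at such a place cannot be given to one gene of the pair. Called shared ends and divergent pairs over all protein-coding genes are not reported here. The counts of 15, 13 and 7 are thus not shown to be particular to proteasome genes.

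CpG content differed between starts with and without a peak. Of the 47 RefSeq starts of the 43 genes, 34 had a peak within 1 kb in all 4 libraries (72.3%, beside 42.1% of all protein-coding starts). A further 7 had one in 1 to 3 libraries (14.9%, beside 9.83%) and 6 in none (12.8%, beside 48.0%). The median CpG ratio was 0.787 for the 34 starts, 0.728 for the 7 and 0.175 for the 6. Over all protein-coding starts it was 0.807, 0.637 and 0.256 for the same classes. The medians had the same order in both sets. The 6 without a peak belong to Psma6 (the first start), Psmb10, Psmb11, Psme2b, Psme3ip1 (a second start) and Psmg3, with ratios of 0.0904 to 0.192 apart from Psmg3, at 0.646.

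**Figure D4:**
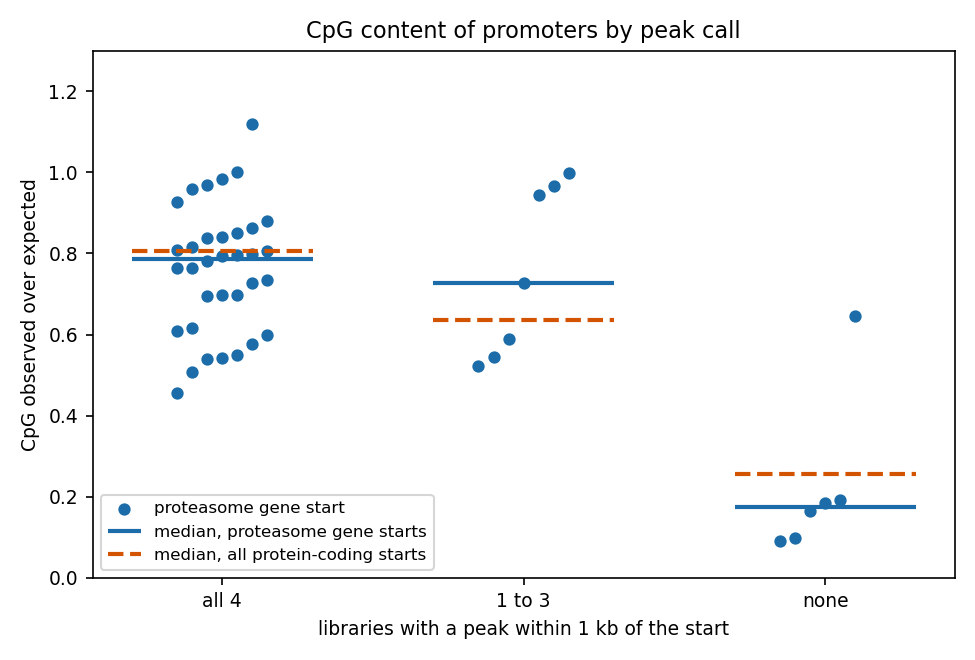
CpG dinucleotides observed over expected in the 300-base promoter (y axis) of 47 starts of proteasome genes, by the number of libraries with a peak within 1 kb of the start (x axis). Points are starts, solid lines their medians and dashed lines the medians of all protein-coding starts. The 34 starts called in all 4 libraries have a median of 0.787 and the 6 starts with no peak a median of 0.175.

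The motifs were counted in all 47 promoters, on both strands, beside the 21263 promoters of protein-coding genes in the same table. The ETS core was present in 17 of the 47 (36.2%), beside 11.6% of all promoters. Among starts with a peak in all 4 libraries it was present in 13 of 34 (38.2%), beside 20.6% of such starts over all genes. Its 16 genes are the core gene Psma6, Psmc1, Psmc2, Psmc6, Psmd2, Psmd4, Psmd6, Psmd11, Psmd12, Psmd13, Psme3, Psme4, Psmg1 and Psmg3, from the core, the base, the lid, the activators and the chaperones, and Psmc3ip and Psme3ip1, taken by symbol alone.

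The antioxidant response element core, the letters of sites where NFE2L1 and NFE2L2 can bind, was present in 6 of 47 promoters (12.8%), beside 13.0% of all. Its genes are Psmb5, Psmb6, Psmc6, Psmd9, Psmd12 and Psme4. The GC box was present in 53.2% beside 46.2%, the CCAAT box in 34.0% beside 38.2%, the interferon-stimulated response element core in 14.9% beside 8.15% and the STAT palindrome in 6.38% beside 7.69%. The cyclic AMP response element was in 0 of 47 promoters, beside 2.23%. Among starts with a peak in all 4 libraries the GC box was in 70.6% beside 69.9%, so its shares were near each other there. In those starts the CCAAT box was in 35.3% beside 41.0%, and the antioxidant core in 11.8% beside 15.3%. The interferon-stimulated core was in 11.8% beside 6.20%, the STAT palindrome in 5.88% beside 6.34% and the cyclic AMP element in 0% beside 3.64%. The genes with the interferon-stimulated element were Psmb3, Psmb4, Psmc2, Psmd4, Psmd9, Psme1 and Psmg4, and Psme1 is the interferon-inducible one among them. The motifs can overlap each other, and longer sites are not told apart from short matches.

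**Figure D5:**
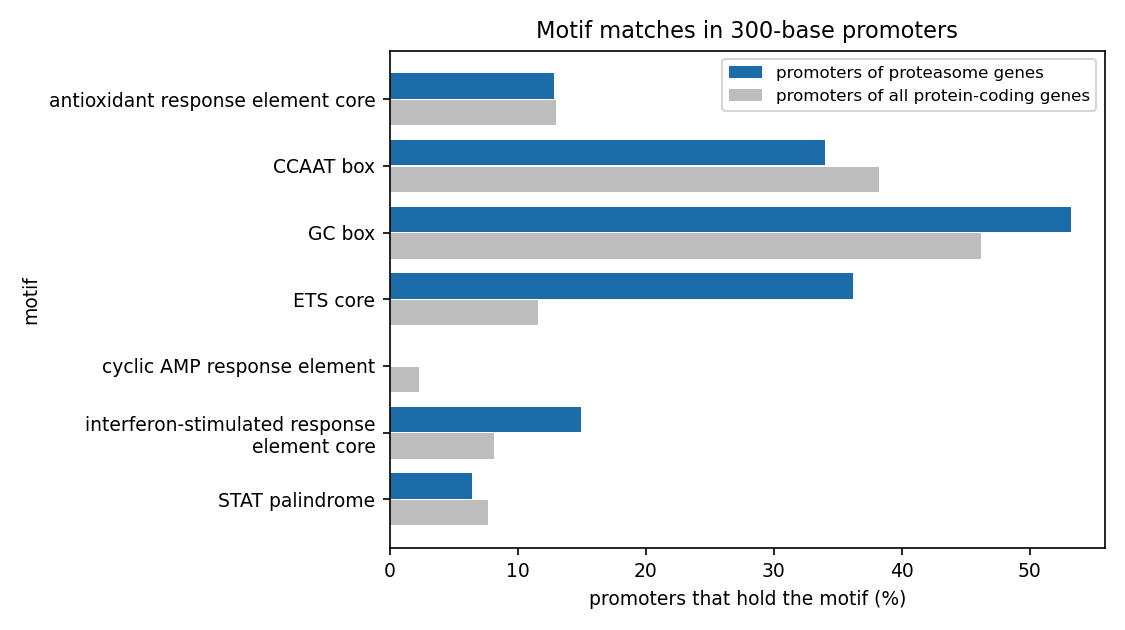
Share of 300-base promoters that hold each of 7 motifs on either strand (x axis, %), for 47 promoters of proteasome genes (upper bars) and 21263 promoters of all protein-coding genes (lower bars). The ETS core stands at 36.2% beside 11.6%, and the antioxidant response element core at 12.8% beside 13.0%.

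Of a wider list of genes that act with the proteasome, 28 of 29 were matched, and 23 of them were called in all 4 libraries (82.1%, beside the 41.3% of all genes), 3 in some and 2 in none (beside 48.3%). None of the 28 was restricted to a genotype, and at the shares of all genes, 0.661% PA-only and 0.476% WT-only, few would be in any list of that size. Nfe2l1, the factor that raises proteasome genes, stood at 7.14% and 5.19% in PA 1 and PA 2 and at 11.7% and 7.21% in WT 1 and WT 2. Nfe2l2, its stress-responsive relative, stood at 1.60% and 0.806% in PA and at 1.71% and 1.33% in WT. Adrm1, a ubiquitin receptor of the base, stood between 3.08% and 6.14%, and Pomp, the core maturation factor, between 38.1% and 57.6%. Rad23b, a shuttle that carries ubiquitin-tagged proteins, stood between 0.170% and 0.525%, the highest place on the list in every library. Uba1, which encodes the main ubiquitin-activating enzyme, was called in PA 1, PA 2 and WT 2, at 73.7%, 65.8% and 72.8%, and Ecpas had no call.

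The tissue label was checked against hepatocyte markers, of which 4 of 8 were called in all 4 libraries, among them Cebpa, Cps1 and Ttr. That share is near the 41.3% of all protein-coding genes, so the count is a weak check of the label. Hnf4a was called in PA 2, WT 1 and WT 2 and Alb in PA 1, and Apoa1 and Foxa2 had no peak near an end. Of the markers of other liver cells, Kdr of endothelial cells alone was called in all 4.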

How the data were processed

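ATAC-seq peak lists of 2 PA and 2 WT mouse livers were used as deposited by the authors, 1 list a library, with chromosome, start and end of each peak and no measured value. The submitters' processing notes name bedtools 2.31.0, HOMER 4.10, R 4.1.2, SAMtools 1.17, Bowtie2 2.5.1 and cutadapt 3.5, with coordinates on GRCm38 (mm10). Which program called the peaks, at what threshold, and what ordered the lines are points not given in the labels or headers. Almost all peaks are 400 bp long, with 3 or 4 exceptions a list. A library with more reads can pass the threshold at more places, and the lists hold no read counts, so no counting intervals are given.

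Groups and replicate numbers came from sample titles. Distances were taken from the peak to each gene end, in 1-based coordinates, with Python 3.11.15, pandas 2.3.3, NumPy 2.4.6 and SciPy 1.17.1, and the call was tested on simulated peaks. Overlapping or touching peaks were merged into regions. All 51 genes are accounted for, in full detail where calls differed between libraries or were absent and for catalytic, immunoproteasome and activator genes. The members and lists were chosen with earlier results of these data known. RefSeq promoters gave starts, strands and sequences. Genes with no promoter entry are Psma8, Psmb1, Psmb2, Psmb7, Psmc3, Psmd3, Psmd7 and Psmg2. A few genes of the wider and marker lists are counted but not reported by name here. Alternatives changed the window, the reference point, the part of each list used, the members and the libraries.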

Additional observations from a re-analysis of the deposited data

How the results depend on the processing

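No gene was restricted to a genotype with windows of 500 bp or 2 kb, by the peak's centre, by RefSeq starts, by merged regions, with lists of equal length, in the first 50% of the lists, or without genes that share a called end. If a peak must cover the end, 1 gene is WT-only (Psmd1). Leaving out a library gave 0 to 2 PA-only genes (Psmb8 and Psmc1 without PA 2, Psme3 without WT 1) and 0 to 2 WT-only genes (Psma3 and Psmd9 without PA 2, Psmb4 without WT 2), under a looser condition on the genotype that lost a library. Genes called in all libraries numbered 31 to 40 with all lists whole and all 51 genes in use, and 28 in the first 50%. They numbered 37 to 39 without a library and 33 of 43 by RefSeq starts alone. There were 35 of 48 without the 3 genes taken by symbol, and 23 of the 36 that share no called end. The last rule leaves out only genes with a call, so its share cannot be set beside that of all 51. Genes called in no library numbered 10 where the peak covers the end, 5 at 2 kb and 5 by starts or ends. They numbered 17 in the first 50%, 4 of 43 by starts alone, 6 of 48 without the genes taken by symbol, and 7 to 9 without a library.

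Mean genes called in PA and in WT were 36.5 and 36.5 where the peak covers the end. They were 42.5 and 42.5 at 2 kb, 36 and 35.5 by starts alone and 33 and 30.5 in the first 50%. Without genes that share a called end, a rule that leaves out only genes with a call, they were 26 and 26.5. They were 43 and 42.5 by starts or ends, 38.5 and 38.5 without the 3 genes taken by symbol, both chosen after seeing the data, and 40 and 39.5 at 500 bp. Left-out libraries gave 40 to 41 in each. The rules admit different places and genes, and the cause of these shifts was not tested. No paired analysis was possible because the results come from no test across libraries and the titles tie no PA number to a WT number. A merged region that must hold all 4 libraries drops Psmb7 and leaves 36. Presence of a peak at unknown depth limits every count, and a missing call is not shown to be closed chromatin.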

Other observations

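Regions over the proteasome genes and 1 kb around them numbered 56, of which 47 lay near an end and 9 inside a gene, and 0 were PA-only or WT-only, beside 3.38% and 1.98% of all regions. Of the 9, those of Psma3, Psma6 (2 regions), Psmb7, Psmb10 and Psmf1 were called in all 4 libraries. The second Psma6 region inside the gene (chromosome 12, 55415731 to 55416175) lay 2284 bp from its downstream end. The Psmb7 region (chromosome 2, 38607652 to 38608194) lay 19606 bp from the nearer end. A region inside Psmc2, 1209 bp from its upstream end, was called in PA 2 and WT 2. It covers the second RefSeq start of Psmc2, 21786747.

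The PA-only region nearest to Psma1 (chromosome 7, 114291655 to 114292064) lay 15539 bp from it, 474 bp from a WT peak, and stood 32.9% and 47.4% down the PA 1 and PA 2 lists. The one nearest to Psmb1 (chromosome 17, 15467602 to 15468090) lay 7631 bp from it, 10630 bp from a WT peak, and stood at 91.9% and 92.7%.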
